A study of Mus musculus with 40 samples.

Results

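The 10 circadian clock transcripts Arntl (also called Bmal1), Clock, Npas2, Per1, Per2, Per3, Cry1, Cry2, Nr1d1 (also called Rev-erb alpha) and Dbp were followed across dose in the liver of mice given the long-lived dioxin TCDD, which binds and activates AhR, the aryl hydrocarbon receptor. They were taken by name, as core genes of the clock, from the 55359 genes of the count tables, and each had enough reads to be tested. Male C57BL/6 mice received sesame oil vehicle or TCDD by oral gavage at 30, 10, 3, 1, 0.3, 0.1 or 0.03 μg/kg, every 4 days and 7 times in all, from postnatal day 30 to day 58. Each of the 8 groups held 5 mice, and each of the 40 RNA-seq libraries came from the whole liver of 1 mouse. All livers were taken between zeitgeber time 0 and 3, which is the opening of the light phase, so that every level below belongs to 1 narrow window of the daily cycle. The hour of each mouse within that window is not given in the sources used here, and a change in level and a shift in phase cannot be told apart.

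The hepatic clock is a transcriptional feedback loop. The proteins of Arntl and of Clock (or its paralog Npas2) pair to activate E-box genes, among them Per and Cry, whose proteins return to repress that pair, while Nr1d1 closes an accessory loop by repressing Arntl. Dbp is an output activator that carries the rhythm to metabolic genes. AhR belongs to the same family of bHLH-PAS proteins as Arntl, Clock and Npas2, and it binds dioxin response elements with the core letters GCGTG.

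Values are in CPM, the number of a gene's reads in every 10 to the power of 6 reads assigned to genes, after TMM scaling (a trimmed mean of log ratios between libraries). The 40 libraries held 15496128 to 20967093 such reads. A member is called induced or repressed where edgeR's quasi-likelihood test against vehicle gave an adjusted p under 0.05, Benjamini-Hochberg over the 15373 genes tested, together with a change of at least 1.5-fold. Adjusted p-values below are from that test, and n is 5 mice a group. Fold changes carry an SE on the log2 scale. It was worked back from the test, as the size of the log2 value over the square root of its F statistic. The marker lists of other cell types moved strongly at the top dose. The sum of 5 hepatocyte markers was 111600 to 138200 CPM in vehicle mice and 37060 to 78550 CPM at 30 μg/kg, with 4 of 5 repressed. The sum of 5 macrophage markers went from 121.7 to 165.7 CPM up to 378.3 to 878.3 CPM, and that of 5 stellate markers from 144.5 to 212.7 CPM up to 490.4 to 1027 CPM, with 5 of 5 induced in both lists. All 5 lymphocyte markers, 3 of 5 endothelial markers and 4 of 5 cholangiocyte markers were induced as well, and 1 cholangiocyte marker was repressed. No listed marker was at 0 in every library of a group. In whole liver, fewer cells of a type and less RNA per cell cannot be told apart, and the part of cell makeup in the results below was not tested. Replicate 1 at 30 μg/kg stood apart from its group for some members, and values that moved without it are given both ways.

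The number of clock genes called grew with dose, as did the share of all genes called, and most of the members called were repressed. At 0.03, 0.1 and 0.3 μg/kg 0 of 10 members were called by edgeR or by DESeq2, and at an unadjusted p under 0.05 edgeR gave 1 (Npas2), 0 and 1 (Cry1). Of all genes 0.0195% were called at 0.03 μg/kg, 0.0976% at 0.1 μg/kg (0.0846% induced and 0.013% repressed) and 0.468% at 0.3 μg/kg (0.403% induced and 0.065% repressed). At 1 μg/kg only Cry1 was called, as repressed, where 2.78% of all genes were called, 2.15% induced and 0.637% repressed. At 3 μg/kg it was again Cry1 alone, where 6.75% of all genes were called, 4.53% induced and 2.22% repressed. At 10 μg/kg Npas2, Cry1 and Nr1d1 were repressed, which is 3 of 10 members, where 21.8% of all genes were called, 13.6% induced and 8.13% repressed. At 30 μg/kg Arntl, Npas2, Cry1 and Nr1d1 were repressed and Dbp was induced, which is 5 of 10 members, where 42.1% of all genes were called. At that dose 18.9% of all genes were repressed, beside 4 of 10 members, and 23.2% were induced, beside 1 of 10. The median log2 fold change of the members was -0.42 at 10 μg/kg and -0.35 at 30 μg/kg, beside 0.01 and 0.03 over all genes tested.

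**Figure D1:**
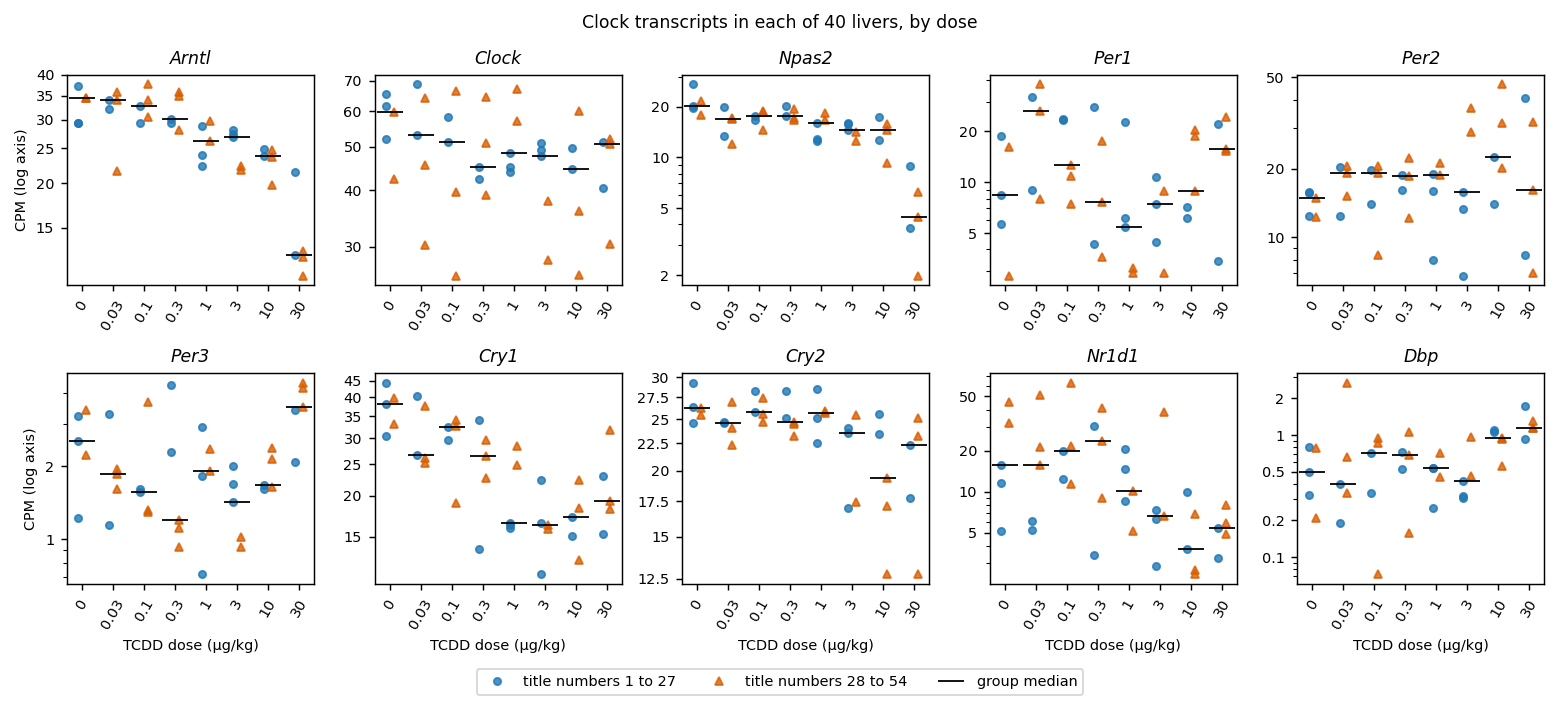
Level of each clock transcript (CPM, log axis) in each of the 40 mice against TCDD dose in μg/kg, with circles for title numbers 1 to 27, triangles for 28 to 54 and a bar at the group median. Arntl and Npas2 drop at 30 μg/kg, Cry1 is lowest from 1 to 10 μg/kg, and Per1, Per2 and Nr1d1 scatter widely between mice of 1 dose.

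In the positive arm, Arntl (ENSMUSG00000055116, chr7:113207465-113314126, forward strand, in the GENCODE M21 gene models on GRCm38, as for all gene positions here) encodes the partner without which the loop does not run. Its level in the vehicle mice was 37.3, 29.4, 29.5, 34.6 and 34.4 CPM. At 10 μg/kg the mice had 24.8, 23.7, 23.7, 24.8 and 19.8 CPM. At 30 μg/kg they had 21.5, 12.6, 12.5, 13.0 and 11.1 CPM. Every mouse at 3, 10 and 30 μg/kg lay below the lowest vehicle mouse, and at 30 μg/kg replicate 1 stood well above its 4 companions. Arntl was repressed 2.34-fold at 30 μg/kg (log2 fold change -1.23 ± 0.14, adjusted p = 1.08e-09), and the log2 fold change was -1.43 without replicate 1 of that dose. At 10 μg/kg its log2 fold change of -0.50 ± 0.14 had an adjusted p of 0.00398 and did not reach 1.5-fold.

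Arntl is a known target of Nr1d1 and of the ROR receptors, which bind the ROR element TAGGTCA. All members but Per2 had promoter entries in RefSeq (13 windows of 9 genes on GRCm38.p6, each of 250 bases before and 50 bases after a transcription start). Searched on both strands, TAGGTCA occurred in 2.61% of all 32851 promoter windows and in 1 of the 13 windows of the members, an Arntl window on the forward strand of chromosome 7. The 30 bases around it, at chr7:113207529-113207558 in the first part of the transcribed region, are printed because they hold this element, which is in capitals.
Arntl: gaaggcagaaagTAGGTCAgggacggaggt

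Npas2 (ENSMUSG00000026077, chr1:39193731-39363236, forward strand), the paralog that can stand in for Clock, changed most among the activators. The vehicle mice had 27.2, 20.2, 19.6, 17.8 and 21.6 CPM. The mice at 30 μg/kg had 8.89, 3.79, 1.98, 6.23 and 4.43 CPM, all below the lowest vehicle mouse. Npas2 was repressed 4.21-fold at 30 μg/kg (log2 fold change -2.07 ± 0.22, adjusted p = 1.75e-10), and the log2 fold change was -2.37 without replicate 1. At 10 μg/kg it was repressed 1.53-fold (-0.61 ± 0.20, adjusted p = 0.0192), and all 5 mice, at 9.23 to 17.4 CPM, lay under the vehicle mice. That call sat at the fold threshold and was lost without vehicle replicate 1 (-0.51) or without replicate 2 (-0.58) or 3 (-0.50) of that dose.

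Clock (ENSMUSG00000029238, chr5:76209868-76304792, reverse strand) was called at no dose. The vehicle mice had 65.5, 52.1, 61.5, 59.7 and 42.4 CPM, and the mice at 30 μg/kg had 51.3, 40.6, 52.1, 50.8 and 30.4 CPM. The groups overlapped, with a log2 fold change of -0.32 ± 0.22 (adjusted p = 0.222). At the other 6 doses its log2 fold change lay between -0.40 and -0.10. Scaling by total counts alone, which moved the median of all genes at 30 μg/kg to 0.52, turned the Clock value to 0.17. Per kilobase of exon the 3 activators stood close together in vehicle livers, with 4.39 ± 0.46 CPM per kb for Arntl, 4.43 ± 0.75 for Npas2 and 4.10 ± 0.67 for Clock (SD, n = 5). At 30 μg/kg the same measure was 1.88 ± 0.56 for Arntl, 1.06 ± 0.55 for Npas2 and 3.28 ± 0.69 for Clock.

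**Figure D2:**
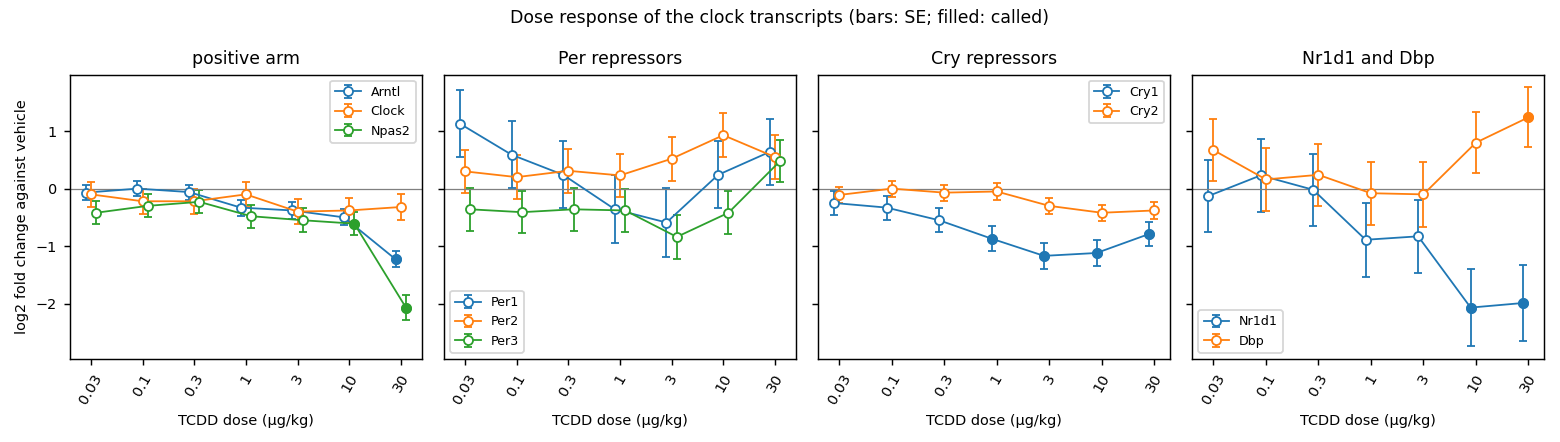
Log2 fold change against vehicle (points, bars are SE) at each TCDD dose in μg/kg for the positive arm, the Per and Cry repressors, and Nr1d1 with Dbp, where filled points are called. Cry1 is the first to be called, at 1 μg/kg, and Arntl and Npas2 take their largest step between 10 and 30 μg/kg.

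Among the repressors, Cry1 (ENSMUSG00000020038, chr10:85131700-85185064, reverse strand), which encodes the stronger inhibitor of the activator pair, responded at the lowest dose. The vehicle mice had 38.3, 30.5, 44.3, 33.1 and 39.9 CPM. At 1 μg/kg the mice had 16.3, 16.6, 15.9, 24.8 and 28.4 CPM, and at 3 μg/kg they had 22.3, 11.5, 16.6, 16.3 and 15.8 CPM. No mouse of either dose reached the lowest vehicle mouse. Cry1 was repressed 1.82-fold at 1 μg/kg (log2 fold change -0.87 ± 0.22, adjusted p = 0.0133), 2.25-fold at 3 μg/kg (-1.17 ± 0.22, adjusted p = 0.000275) and 2.17-fold at 10 μg/kg (-1.12 ± 0.22, adjusted p = 9.5e-05). The call at 1 μg/kg was lost without replicate 1 or replicate 3 of that dose (-0.79 in both).

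The top dose did not carry Cry1 further down. At 30 μg/kg the mice had 15.3, 23.1, 19.3, 31.9 and 18.3 CPM, so that 1 mouse lay inside the vehicle range. The repression was 1.73-fold (-0.79 ± 0.21, adjusted p = 0.0019, and -0.69 without replicate 1), and the difference between 10 and 30 μg/kg was not tested. With total counts alone Cry1 at 30 μg/kg stood at -0.29 and was no longer called.

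Cry1 was the member with an E-box and a dioxin response element core in the same promoter window. The E-box CACGTG, the site of the activator pair, occurred in 7.15% of all promoter windows and in those of Cry1 and Per1. The dioxin response element core GCGTG occurred in 32.4% of all windows and in 9 of the 13 windows of the members, those of 8 genes, with no such match in the windows of Arntl. The letters of these motifs do not overlap with each other. The 250 bases before the start of Cry1, on the reverse strand at chr10:85185055-85185304, are shown because they carry both kinds of motif. Capitals mark the E-box, at bases -60 to -55 from the start, and the dioxin response element cores, read here on the opposite strand as CACGC.
Cry1: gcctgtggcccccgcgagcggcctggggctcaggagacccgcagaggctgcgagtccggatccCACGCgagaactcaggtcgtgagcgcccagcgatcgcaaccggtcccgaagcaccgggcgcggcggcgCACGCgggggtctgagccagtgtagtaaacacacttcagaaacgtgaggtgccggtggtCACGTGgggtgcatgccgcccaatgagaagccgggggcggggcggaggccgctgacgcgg

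Cry2 (ENSMUSG00000068742, chr2:92403646-92434043, reverse strand), the weaker cryptochrome, moved little. Its vehicle mice spanned 24.6 to 29.3 CPM, the mice at 10 μg/kg 12.8 to 25.6 CPM and those at 30 μg/kg 12.7 to 25.2 CPM. At both doses 4 of 5 mice lay below every vehicle mouse. The log2 fold change was -0.42 ± 0.14 at 10 μg/kg (adjusted p = 0.0208) and -0.38 ± 0.14 at 30 μg/kg (adjusted p = 0.0221, and 0.0536 without replicate 1), each under 1.5-fold. With total counts alone the value at 30 μg/kg was 0.12.

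None of the 3 Per genes was called at any dose. Per2 (ENSMUSG00000055866, chr1:91415982-91459324, reverse strand), a repressor that also answers to feeding and temperature, had 15.7, 12.4, 15.7, 14.8 and 12.3 CPM in vehicle mice and 22.6, 14.0, 46.8, 31.7 and 20.1 CPM at 10 μg/kg. At 30 μg/kg the mice had 40.6, 8.36, 7.02, 16.2 and 31.9 CPM, which spread to both sides of the vehicle range. The log2 fold change was 0.93 ± 0.38 at 10 μg/kg (adjusted p = 0.0573) and 0.55 ± 0.38 at 30 μg/kg (adjusted p = 0.222), where it was 0.16 without replicate 1, the highest mouse of that dose. With vehicle and 10 μg/kg fitted alone the adjusted p was 0.0104, and with total counts alone Per2 was called at 10 (1.17) and at 30 μg/kg (0.99).

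Per1 (ENSMUSG00000020893, chr11:69095217-69109960, forward strand), which is rapidly induced by glucocorticoids, differed widely between mice of 1 dose. The vehicle mice had 5.62, 18.8, 8.41, 2.80 and 16.3 CPM and the mice at 30 μg/kg had 3.43, 22.2, 15.3, 24.2 and 15.7 CPM. Its log2 fold changes ran from -0.59 ± 0.60 at 3 μg/kg to 1.13 ± 0.58 at 0.03 μg/kg. Per3 (ENSMUSG00000028957, chr4:151003652-151044665, reverse strand) was low throughout, with 1.23 to 3.43 CPM in vehicle mice and 2.08 to 4.42 CPM at 30 μg/kg, and its log2 fold changes ran from -0.84 ± 0.38 at 3 μg/kg (adjusted p = 0.172) to 0.48 ± 0.36 at 30 μg/kg (adjusted p = 0.264). With total counts alone Per3 was called at 30 μg/kg (0.96).

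Nr1d1 (ENSMUSG00000020889, chr11:98767932-98775333, reverse strand), the repressor of Arntl and a heme-binding nuclear receptor, showed the largest change at 10 μg/kg. The vehicle mice had 5.17, 11.6, 15.8, 31.8 and 45.3 CPM. The mice at 10 μg/kg had 3.79, 10.0, 2.66, 2.47 and 6.89 CPM, and those at 30 μg/kg had 3.24, 5.41, 7.97, 4.88 and 5.90 CPM. Both dosed groups overlapped with the low end of a vehicle group whose own mice spanned a wide range. Nr1d1 was repressed 4.2-fold at 10 μg/kg (log2 fold change -2.07 ± 0.67, adjusted p = 0.0161) and 3.97-fold at 30 μg/kg (-1.99 ± 0.66, adjusted p = 0.0107). Both calls rested on vehicle replicate 5, and without it the log2 fold changes were -1.62 (adjusted p = 0.0727) and -1.54 (adjusted p = 0.0544). Nr1d1 and Arntl were both called repressed at 30 μg/kg in livers of the same mice, Nr1d1 with vehicle replicate 5 in the fit.

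The Nr1d1 window held a dioxin response element core and no CACGTG, and E-boxes outside the window or with other letters were not searched. Its 250 bases before the start, on the reverse strand at chr11:98775378-98775627, are printed to set beside those of Cry1, with the core in capitals on the opposite strand.
Nr1d1: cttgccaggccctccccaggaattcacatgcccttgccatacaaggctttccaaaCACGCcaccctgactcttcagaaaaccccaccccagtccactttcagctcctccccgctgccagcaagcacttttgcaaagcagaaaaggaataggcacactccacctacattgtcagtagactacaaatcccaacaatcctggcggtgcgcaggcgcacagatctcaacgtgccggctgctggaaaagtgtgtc

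The D-box TTATGNAA, to which Dbp binds, occurred in 3.38% of all windows and in those of Per1 and Per3 among the members.

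Dbp (ENSMUSG00000059824, chr7:45705088-45710203, forward strand) was near the bottom of its scale in all groups. The vehicle mice had 0.796, 0.498, 0.324, 0.210 and 0.788 CPM, from 3 to 16 reads each, and the mice at 30 μg/kg had 0.926, 1.75, 1.14, 1.15 and 1.31 CPM, from 20 to 42 reads each. Every mouse at 30 μg/kg lay above the highest vehicle mouse, and the highest level of all, 2.69 CPM, belonged to a mouse given 0.03 μg/kg. Dbp was induced 2.36-fold at 30 μg/kg (log2 fold change 1.24 ± 0.52, adjusted p = 0.0414), and leaving out any of 7 libraries of the 2 groups took the adjusted p above 0.05.

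The Dbp value also depended on how reads in shared exons were counted. Of the Dbp exons, 539 bases (18%) lie opposite exons of Sphk2, a sphingosine kinase, and in unstranded counting a read in that stretch goes to neither gene. The libraries keep no strand, since the strand 1 column held 50 to 50.3% of stranded assignments. The columns of both strands, when summed, assigned to Dbp a mean of 35.6 reads in vehicle and 68.0 at 30 μg/kg. The unstranded column lacked 75.8% and 55.3% of these reads, which without strand may belong to Dbp or to Sphk2 and cannot be told apart. With 1 strand-specific column in place of the unstranded one, Dbp at 30 μg/kg stood at 0.43 and was not called (adjusted p = 0.203). Sphk2 was repressed at 30 μg/kg, from a mean of 55.7 to 26.7 CPM (log2 fold change -1.06, adjusted p = 1.03e-06). Nr1d1 shares 263 bases (8.55%) with Thra, the thyroid hormone receptor alpha gene on the opposite strand, whose log2 fold change at 30 μg/kg was -0.58 (under 1.5-fold). Summed over both strand columns, the mean reads assigned to Nr1d1 were 525.4 in vehicle, 228 at 10 μg/kg and 291.2 at 30 μg/kg, of which the unstranded column lacked 38.3%, 55% and 53.8%. With the strand-specific column Nr1d1 stood at -1.58 at 10 μg/kg (adjusted p = 0.0166) and at -1.50 at 30 μg/kg (adjusted p = 0.0112), smaller than in the unstranded counts and still called. Cry2 shares 295 bases (4.67%) with D930015M05Rik and Arntl shares 33 bases (0.439%) with Gm45355.

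Trends over the ordered dose steps, tested by a linear slope in log2 units per step, were found for 6 of 10 members, where 57.7% of all genes had one, 31.5% upward and 26.1% downward. Arntl (-0.141 ± 0.020), Npas2 (-0.174 ± 0.034), Cry1 (-0.146 ± 0.025), Cry2 (-0.061 ± 0.016) and Nr1d1 (-0.330 ± 0.078) fell with dose and Per2 (0.096 ± 0.040, adjusted p = 0.0385) rose with it. With total counts alone the slope of Cry2 was -0.001, and with numbering and place of the library titles, explained further on, as covariates that of Per2 was 0.077 (adjusted p = 0.0918). Without the top 2 doses, over the 30 libraries from vehicle to 3 μg/kg, 3 of 10 members kept a slope, where 20.1% of all genes had one and 9.22% had one downward. Those 3 were Cry1 (-0.226 ± 0.034, adjusted p = 5.94e-06), Arntl (-0.080 ± 0.021, adjusted p = 0.00436) and Npas2 (-0.083 ± 0.024, adjusted p = 0.00999), all downward. Arntl and Npas2 thus had a downward slope over doses at none of which either was called.

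Members also differed between mice of the same dose. The numbers in the library titles run through the doses in ascending order in threes, from 1 to 27 and again from 28 to 54, with 19 and 21 libraries. What these numbers record is not given in the sources used here, so the hour of collection and every other thing that followed them cannot be told apart. In a test added after the values were seen, with dose in the model, 4 of 10 members (Arntl, Clock, Per1 and Nr1d1) varied over the 6 combinations of numbering and place among 3, where 28.5% of all genes did. In the numbers from 28 to 54, Clock was lower at each later place in 13 of 13 steps within a dose. Its range was 52.1 to 67.3 CPM at the first place, 36.1 to 56.9 at the second and 25.9 to 39.0 at the third, so that the first and the third did not overlap.

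From the first to the third place in those numbers Clock changed by -1.02 ± 0.12 on the log2 scale (adjusted p = 1.35e-07) and Arntl by -0.35 ± 0.10 (adjusted p = 0.00478). Per1 changed by 1.33 ± 0.37 (adjusted p = 0.00519), upward in 11 of 13 steps, and Nr1d1 by 1.33 ± 0.48 (adjusted p = 0.0277), upward in 9 of 13 steps. Of all genes 35.8% passed this test. In the numbers from 1 to 27 the medians at the 3 places were 47.6, 52.1 and 49.7 CPM for Clock and 28.8, 29.4 and 28.1 CPM for Arntl. They were 5.45, 22.7 and 8.41 CPM for Per1 and 5.17, 11.6 and 14.7 CPM for Nr1d1. These medians pool mice of different doses at each place. In the groups that held both, Arntl was lower at the third place than at the first except at 3 μg/kg. Per1 was higher there except at 10 μg/kg, and Nr1d1 was higher except at 3 μg/kg. Clock showed no such order, being lower in vehicle mice and at 30 μg/kg and higher at 0.3, 1, 3 and 10 μg/kg. The places within 1 to 27 were not tested on their own.

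**Figure D3:**
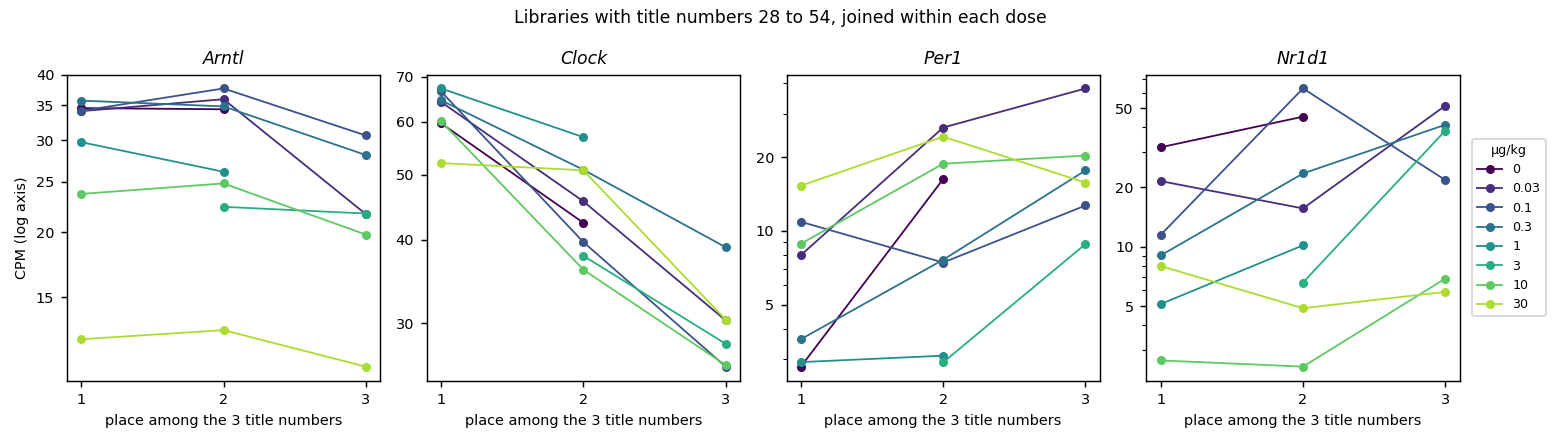
Level (CPM, log axis) of Arntl, Clock, Per1 and Nr1d1 in libraries with title numbers 28 to 54 against their place among 3, with a line for each dose in μg/kg. Clock falls from place to place at every dose while Per1 goes up in 11 of 13 steps.

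With numbering and place as covariates, the repression at 30 μg/kg of Arntl (-1.20), Npas2 (-2.09), Cry1 (-0.81) and Nr1d1 (-2.13) stayed called, and Dbp (1.06, adjusted p = 0.0918) did not. Within the numbers 1 to 27 alone the log2 fold changes at 30 μg/kg were -0.93 for Arntl, -1.84 for Npas2, -0.99 for Cry1, -1.33 for Nr1d1 and 1.27 for Dbp. Within 28 to 54 alone they were -1.53, -2.25, -0.68, -2.65 and 1.23 in the same order. Arntl and Npas2 were called in both, Cry1 in the first and Nr1d1 in the second. At 10 μg/kg Nr1d1 was at -0.66 in the first and at -3.27 in the second, and the 3 vehicle mice of the first had 5.17 to 15.8 CPM while the 2 of the second had 31.8 and 45.3 CPM. The interaction of dose with numbering had an unadjusted p of 0.023 for Nr1d1 at 10 μg/kg and 0.0303 for Arntl at 30 μg/kg, and the adjusted p was above 0.05 for all 10 members at both doses.

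Pairs of members were compared across the 40 mice after each dose mean was subtracted from log2 CPM, with 100000 permutations of mice within doses, 2-sided, adjusted over the 45 pairs. Of these, 3 pairs covaried. Arntl and Clock went together (Pearson's r = 0.53, permutation p = 0.00065, adjusted p = 0.0232, Spearman's rho = 0.45, permutation p = 0.00698, adjusted p = 0.0785). Arntl and Per1 went opposite ways (r = -0.56, permutation p = 0.00103, adjusted p = 0.0232, rho = -0.51, permutation p = 0.00271, adjusted p = 0.061), as did Clock and Nr1d1 (r = -0.52, permutation p = 0.00187, adjusted p = 0.028, rho = -0.53, permutation p = 0.00143, adjusted p = 0.061). Without the 2 mice farthest from the median of the first gene r was 0.52, -0.57 and -0.56. By Spearman's rho alone no pair passed after adjustment. By rho 11 pairs had an unadjusted p under 0.05. All 3 pairs lay among the 4 members that varied with numbering and place, and once those 6 levels were also removed 0 of 45 pairs passed by r, with 5 at an unadjusted permutation p under 0.05. In the 30 mice from vehicle to 3 μg/kg 0 pairs passed by r, with 10 at an unadjusted p under 0.05, and by rho Clock and Nr1d1 did (r = -0.60, rho = -0.62, adjusted permutation p = 0.0643 and 0.0369). Without replicate 1 at 30 μg/kg Arntl and Per1 no longer passed (r = -0.45, adjusted permutation p = 0.0909).

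Among the 5 genes whose levels followed Arntl most closely between mice of 1 dose, as a description over 40 mice, were Aldh6a1 (r = 0.782), Dsg2 (0.777) and Rdx (0.762). None of these 3 stayed among the top 5 without replicate 1 at 30 μg/kg, where Dnajc13 (0.822) and Ngly1 (0.787) stood first. For Dbp they were Ubash3b (0.677), Patz1 (0.667), Lhfpl2 (0.628), 1700092C10Rik (0.613) and Arhgef6 (0.577), of which the first 4 kept their places without that mouse.

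The other genes of the clock loop were called about as often as genes at large. Of 11 loop partners, 2 were called at 10 μg/kg, both repressed, where 21.8% of all genes were called. At 30 μg/kg 5 of 11 were called, 4 repressed and 1 induced, where 42.1% of all genes were called, with a median log2 fold change of 0.11 at 30 μg/kg. Nfil3, a repressor of D-box genes and so an opponent of Dbp, was repressed at 10 μg/kg (-0.92 ± 0.19) and at 30 μg/kg (-1.89 ± 0.20, adjusted p = 1.81e-10), from 57.0 to 102 CPM in vehicle mice to 15.1 to 27.4 CPM. Bhlhe40 (Dec1), an E-box repressor, was repressed at 3 (-1.11 ± 0.27), 10 (-0.84 ± 0.27) and 30 μg/kg (-1.37 ± 0.27). Its paralog Bhlhe41 (Dec2) was induced at 30 μg/kg (2.62 ± 0.58, adjusted p = 0.000199), from 0.143 to 0.560 CPM in vehicle mice to 1.34 to 3.54 CPM. The activator Hlf (-0.92 ± 0.16) was repressed at 30 μg/kg, and Tef, which like Hlf is a relative of Dbp, was repressed at 3 μg/kg (-0.63 ± 0.15) and had -0.21 ± 0.15 at 30 μg/kg.

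Of 8 genes whose proteins modify or degrade clock proteins, 3 were called at both top doses, where 21.8% and 42.1% of all genes were, with a median log2 fold change of -0.06 at 30 μg/kg. The casein kinase Csnk1e (1.20 ± 0.17 at 30 μg/kg) and the deubiquitinase Usp2 (2.71 ± 0.34) were induced and the F-box gene Fbxl21 (-1.93 ± 0.28) was repressed. Usp2 went from 2.10 to 4.67 CPM in vehicle mice to 12.8 to 33.6 CPM. Of 5 genes that respond to glucocorticoids, a signal that resets the liver clock, Sgk1 was induced (3.16 ± 0.39) and Tsc22d3 was repressed (-1.01 ± 0.33) at 30 μg/kg, and the other 3 were not called, which is 2 of 5 beside 42.1% of all genes. The 6 AhR targets were all induced at 10 and 30 μg/kg, with medians of 6.78 and 6.98.

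Among 11 liver genes with a known daily rhythm, 4 were called at 10 μg/kg, where 21.8% of all genes were, and 8 at 30 μg/kg, where 42.1% were. Of these 8, 5 were induced and 3 repressed, beside 23.2% and 18.9% of all genes. The P450 gene Cyp2a5 (3.62 ± 0.25), the heme synthesis enzyme Alas1 (2.42 ± 0.52), the P450 reductase Por (2.07 ± 0.19), the cell cycle kinase Wee1 (0.99 ± 0.31) and Nampt of NAD synthesis (0.68 ± 0.17) were induced at 30 μg/kg. Cyp2a5 was induced at every dose from 0.1 μg/kg (1.07 ± 0.23, adjusted p = 0.0431), where no clock member was called. Por was induced at every dose from 1 μg/kg (0.71 ± 0.18, adjusted p = 0.0158). Alas1, Wee1 and Nampt were called at 30 μg/kg alone. Elovl3, a fatty acid elongase, went from 490 to 1140 CPM in vehicle mice to 0.0794 to 2.78 CPM (-9.95 ± 0.59). Rgs16 (-2.85 ± 0.99) and the uridine phosphorylase Upp2 (-2.47 ± 0.46) were repressed as well. Wee1 and Nampt are E-box genes, and they were induced in the livers where Arntl and Npas2 were repressed. The 2 members with CACGTG in a window did otherwise. Cry1 was repressed at 30 μg/kg (-0.79 ± 0.21) and Per1 was not called (0.64 ± 0.58). The part of the clock members in these changes was not tested.

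**Figure D4:**
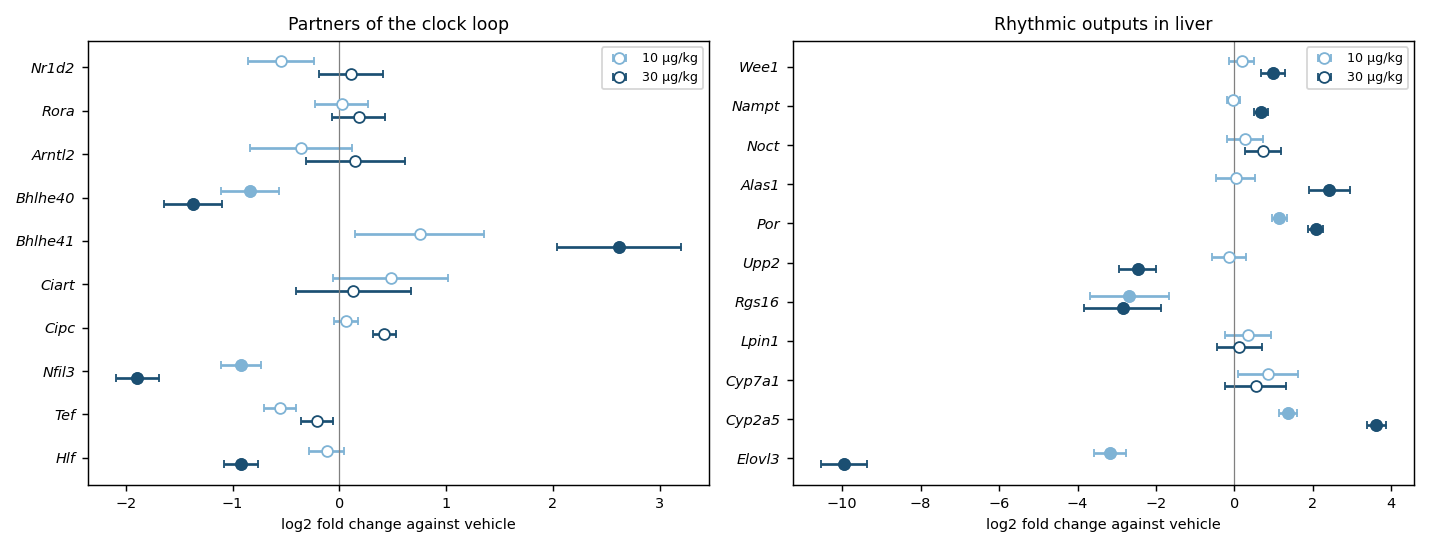
Log2 fold change against vehicle (points, bars are SE, filled points are called) at 10 and 30 μg/kg for 10 of the 11 partners of the clock loop (left) and 11 rhythmic liver outputs (right). Nfil3 and Bhlhe40 are repressed while Bhlhe41 is induced, and Elovl3 has the lowest value of the outputs, -9.95 at 30 μg/kg.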

How the data were processed

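Total RNA of whole liver was sequenced as 150-base paired-end reads after NEBNext Ultra II library preparation. Per the submitters' processing notes, reads passed FastQC 0.11.7, Trimmomatic 0.39 and STAR 2.7.3a. The labels name both GRCm39 and mm10, without their roles, so no coordinate of the files is given. Promoters and gene models are RefSeq and GENCODE M21 on GRCm38. The values used are raw counts per gene, deposited by the authors as STAR gene tables, in their unstranded column. Gene reads made up 71.3 to 80.8% of each library. A normalized table of the authors was not used. Groups came from the dose label.

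Counts were filtered (filterByExpr, minimum count 10, total 15), scaled by TMM and fitted over all 40 libraries with edgeR 4.0.16 in R 4.3.3. DESeq2 1.42.0, other scalings, filters and samples were alternatives. The fits were tested on simulated data. P-values of the dose contrasts in the main fit measure the spread between mice of 1 dose, pooled over the 8 groups of 5 mice. Members and lists were chosen with earlier results of these data known. Named genes were the members, called genes of the other lists, the 5 most like Arntl and Dbp (Dnajc13 and Ngly1 were added after their values were seen), and genes that overlap a member, with 3 genes not reported here.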

Additional observations from a re-analysis of the deposited data

Results flagged for a closer look

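In 10 of 80 sets of 5 mice (1 member at 1 dose) 1 mouse lay far from the rest, with a gap over the whole range above Dixon's 95% critical value for 5 samples. Chance gives about 1 such set in 20. For Arntl these were replicate 5 at 0.03 μg/kg (21.6 CPM, nearest 32.1), replicate 5 at 10 μg/kg (19.8, nearest 23.7) and replicate 1 at 30 μg/kg (21.5, nearest 13.0). For Nr1d1 they were replicate 4 at 0.1 μg/kg (63.0 CPM, nearest 21.7) and replicate 5 at 3 μg/kg (38.5, nearest 7.32). For Dbp they were replicate 5 at 0.03 μg/kg (2.69 CPM, nearest 0.659) and replicate 5 at 3 μg/kg (0.961, nearest 0.466). Per1 had 22.7 CPM in replicate 2 at 1 μg/kg (nearest 6.17), Per3 had 3.69 in replicate 3 at 0.1 μg/kg (nearest 1.61), and Cry1 had 19.0 in replicate 4 at 0.1 μg/kg (nearest 29.7). Replicate 5 at 0.03 μg/kg, at the third place among 3 in the title numbers from 28 to 54, had the lowest Arntl and the highest Dbp of its group, and the same place held the distant mouse in 5 of the 10 sets. The part of that place in these values was not tested.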

How the results depend on the processing

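No paired analysis was possible because replicate numbers only follow accession order, so they link no mouse to another. The counts of called members at 0.03, 0.1, 0.3 and 3 μg/kg stayed the same under every alternative tried. Within the title numbers 1 to 27 alone 0 members were called at 1 μg/kg, 1 at 10 μg/kg and 3 at 30 μg/kg, with 1 loop partner at 10 μg/kg, 3 at 30 μg/kg and 4 outputs at 30 μg/kg. Within 28 to 54 alone they were 0 at 1 μg/kg, 3 at 30 μg/kg and 1 loop partner at 10 μg/kg. These fits hold fewer mice. Loop partners at 10 μg/kg were 1 with total counts alone or with vehicle and that dose alone, and at 30 μg/kg 3 with a mean count of at least 50. Without the fold threshold 5 members passed at 10 μg/kg. Slopes were found for 3 members without the 10 and 30 μg/kg groups, and 0 pairs covaried from vehicle to 3 μg/kg or with dose, numbering and place removed (by Pearson's r, with 10 and 5 at an unadjusted permutation p under 0.05). Leaving out 1 mouse gave 0 to 1 members at 1 μg/kg, 2 to 3 at 10 μg/kg and 4 to 5 at 30 μg/kg, 1 to 3 loop partners at 10 μg/kg and 4 to 5 at 30 μg/kg, 3 to 4 outputs at 10 μg/kg and 7 to 8 at 30 μg/kg. For the pairs only replicate 1 at 30 μg/kg was left out, which gave 2 pairs. Directions that turned were not called before or after: with total counts alone Clock (0.17) and Cry2 (0.12) at 30 μg/kg and the slopes of Clock (0.011) and Per1 (0.020); Per1 at 10 μg/kg within 1 to 27 alone (-0.73), and -0.02 to 0.57 when 1 mouse was left out; the slope of Per3 without 30 μg/kg (-0.076); and without both top doses those of Per3 (-0.119) and Dbp (-0.085). The cause was not tested. The Dbp call at 30 μg/kg was also lost without a filter on low counts (adjusted p = 0.075) and with numbering as a covariate (0.0523), and its reads set the limit on what can be seen.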
